A study of Mus musculus with 16 samples.

Results

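The solute carrier (Slc) genes encode membrane proteins that move amino acids, sugars, ions, nucleotides, vitamins and metals across the plasma membrane or across the membranes of organelles. Those of the Slc25 family sit in the inner mitochondrial membrane and exchange metabolites between the cytosol and the mitochondrial matrix, while most others work at the cell surface or in the Golgi, the endoplasmic reticulum and vesicles. In skeletal muscle they supply the fibre with substrates and keep its ion gradients. Formoterol is a β2-adrenoceptor agonist, and this receptor raises cyclic AMP in muscle fibres, which acts on transcription through factors that bind the cyclic AMP response element (CRE).

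Tibialis anterior RNA was taken from male C57BL/10 ScSn wild type mice, 6 to 7 weeks old, after a single intraperitoneal injection. The 4 groups were formoterol at 100 µg/kg and saline, each at 1 h and at 4 h, with 4 mice per group and 1 Sentrix Mouse-6 array per mouse. Members were the Slc genes read from a gene number in the probe ID, which is an inference, as no probe annotation was used. A probe was kept when its detection score was 1 on 4 or more of the 16 arrays. This gave 31 genes, each by its brightest probe: 15 plasma membrane carriers, 7 mitochondrial Slc25 carriers, 7 intracellular carriers and 2 placed in no class (the choline transporter Slc44a1, found in several membranes, and Slc7a6os, named for lying opposite Slc7a6). They are among 2386 genes named in this way by kept probes, of which there were 7596 in 46120. Slc25a25 was left out by choice. It is the mitochondrial ATP-Mg carrier whose mRNA was 1.58 log2 units higher with formoterol at 1 h and was called at 4 h too. Classes were assigned by symbol, not by a check of each protein. Slc25 symbols were taken as mitochondrial, and listed symbols or families as intracellular or unplaced. Other members of the listed transporter families were placed at the plasma membrane by default.

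Of 133 Slc genes with a probe named in this way, 101 had none that was kept. Of these, 5 were detected on 1 or 2 arrays, and the other 96 on none. Just inside the limit, 2 members were detected on 5 arrays, Slc4a7 and Slc28a2. Detection on all 16 arrays was reached by 17 members. The remaining 14 were detected on 5 to 15 arrays, so that a dim member can be kept only through the groups in which it was brighter. Widely studied muscle carriers such as the glucose transporter Slc2a4 and the ADP/ATP carrier Slc25a4 carried no probe named through its ID and were not analysed here. The same holds for Slc20a1, Slc10a3 and Slc23a2, which the paper lists among the solute carriers that rose with formoterol. The counts and ranges below therefore cover the members only, and carriers outside them also responded.

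Levels are scaled intensities in arbitrary units, in which every array has the same median over kept probes, 523.5, and values under 257.5 were raised to that floor. Changes are log2 differences with their standard error (SE) from limma, fitted over all 16 arrays, and a probe was called at a Benjamini-Hochberg adjusted p under 0.05 over the 7596 probes. Before scaling, the array medians were 392.7 to 746.1, or 2.33 to 3.74 times that of probes with a detection score under 0.5. The mouse with the highest of both was saline 4 h replicate 2. Of the muscle marker genes, Myh1 and Actn3 of fast fibres were measured and detected on all 16 arrays, while 1 gene of the slow fibre list, Atp2a2, was measured and was detected on 4. In whole muscle, fewer cells of a type and less RNA per cell cannot be told apart.

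Promoter windows, from 250 bases before to 50 after an annotated start (RefSeq, GRCm38.p6), were matched to 20 of the 31 members. Slc38a3, the member with the smallest adjusted p at 4 h, had no window. They were searched on both strands for the full CRE (TGACGTCA), its core (TGACG, which the full site contains), the site shared by the PAR bZIP factors and Nfil3 (TTACGTAA) and the E-box (CACGTG). The windows below are those of 4 members called at 4 h: Slc37a4 and Slc38a4, both lower with formoterol, and Slc25a22 and Slc25a5, both higher. Where a gene has several windows, the one with the most CRE core letters is shown, or one of them if none has any. These letters, on either strand, are in capitals.
Slc37a4, chr9:44396849-44397148, plus strand: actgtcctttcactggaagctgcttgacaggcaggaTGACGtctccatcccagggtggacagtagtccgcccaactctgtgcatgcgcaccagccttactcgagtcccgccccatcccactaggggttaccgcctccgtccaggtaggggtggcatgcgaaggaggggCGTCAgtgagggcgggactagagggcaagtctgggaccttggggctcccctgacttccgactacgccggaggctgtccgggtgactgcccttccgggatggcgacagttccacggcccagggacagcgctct
Slc38a4, chr15:97031164-97031463, minus strand: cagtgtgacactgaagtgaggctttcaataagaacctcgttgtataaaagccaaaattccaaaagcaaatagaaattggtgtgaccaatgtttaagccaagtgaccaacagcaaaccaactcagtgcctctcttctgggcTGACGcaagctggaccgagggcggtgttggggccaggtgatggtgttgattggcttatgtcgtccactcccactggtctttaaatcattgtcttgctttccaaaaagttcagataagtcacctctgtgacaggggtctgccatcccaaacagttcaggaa
Slc25a22, chr7:141437825-141438124, minus strand: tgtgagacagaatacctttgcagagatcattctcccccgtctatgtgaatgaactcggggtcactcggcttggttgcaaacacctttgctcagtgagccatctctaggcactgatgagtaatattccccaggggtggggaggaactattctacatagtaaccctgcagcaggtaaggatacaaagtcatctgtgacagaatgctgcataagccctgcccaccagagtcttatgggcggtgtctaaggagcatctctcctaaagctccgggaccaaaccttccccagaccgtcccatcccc
Slc25a5, chrX:36795347-36795646, plus strand: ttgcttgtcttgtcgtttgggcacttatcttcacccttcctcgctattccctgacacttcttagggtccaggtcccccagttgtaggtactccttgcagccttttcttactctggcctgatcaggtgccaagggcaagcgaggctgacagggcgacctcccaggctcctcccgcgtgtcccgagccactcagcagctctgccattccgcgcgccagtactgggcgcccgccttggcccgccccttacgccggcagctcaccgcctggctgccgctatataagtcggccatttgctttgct
The Slc37a4 window shown holds core letters at bases -214 and -82 relative to the start. Of its other windows, 1 overlaps this one and holds the first of these matches again, at base -61 from its own start, and 1 holds none. The Slc38a4 window shown holds them at base -110, and the other 2 of its 3 windows hold none. None of the 3 windows of Slc25a22 nor the single one of Slc25a5 holds them. Over all members, the CRE core was in 6 of 32 windows (18.8%), of 5 genes (Slc37a4, Slc38a4, Slc39a1, Slc6a9 and Slc7a6os), against 20.8% of all 32851 windows. The full CRE was in 0 of the 32 windows, against 1.79% of all, and TTACGTAA in 0 against 0.119%. The E-box was in 1 window, that of Slc35e3 (3.12%), against 7.15% of all. The median share of G and C bases was 60.2% in the member windows and 52.7% in all windows, and the shares above were not adjusted for it. These are matches of letters, not measured sites.

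At 1 h no member was called (limma, 0 of 31, with 3 at an unadjusted p under 0.05 and 0 by the methods' t-test after adjustment), where 2.78% of all kept probes were called. An unadjusted p under 0.05 (limma) was reached by 1061 of the 7596 kept probes. Responses ran between -0.29 for Slc37a4 and 0.35 for Slc25a22 on the log2 scale, and in all 31 the formoterol and saline mice overlapped. Over all kept probes the groups did not overlap in 8.44%. The medians were close to 0: 0.03 over all members, 0.03 for the plasma membrane class, 0.05 for Slc25 and 0.07 for the intracellular class.

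At 4 h, 6 of the 31 members were called. Of these, 4 rose with formoterol, Slc38a3, Slc25a22 and Slc25a5 among them, and Slc38a4 and Slc37a4 fell. This is 19.4% of the members beside 15.9% of all kept probes, and the split was 4 higher (8.81% of kept probes were) and 2 lower (7.07%). The count is thus near that of the array as a whole. Without formoterol 4 h replicate 4 it was 2 (Slc38a3 and Slc25a22), where 11.6% of kept probes were called. Among probes detected on every array 15.6% were called, against 4 of the 17 such members, and among the rest 16.4%, against 2 of 14. The groups did not overlap in 6 members, 19.4% as in 19.4% of kept probes: the called ones except Slc37a4, and Slc39a1, which was not called. The plot of responses by class shows the size of 29 of them.

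**Figure D1:**
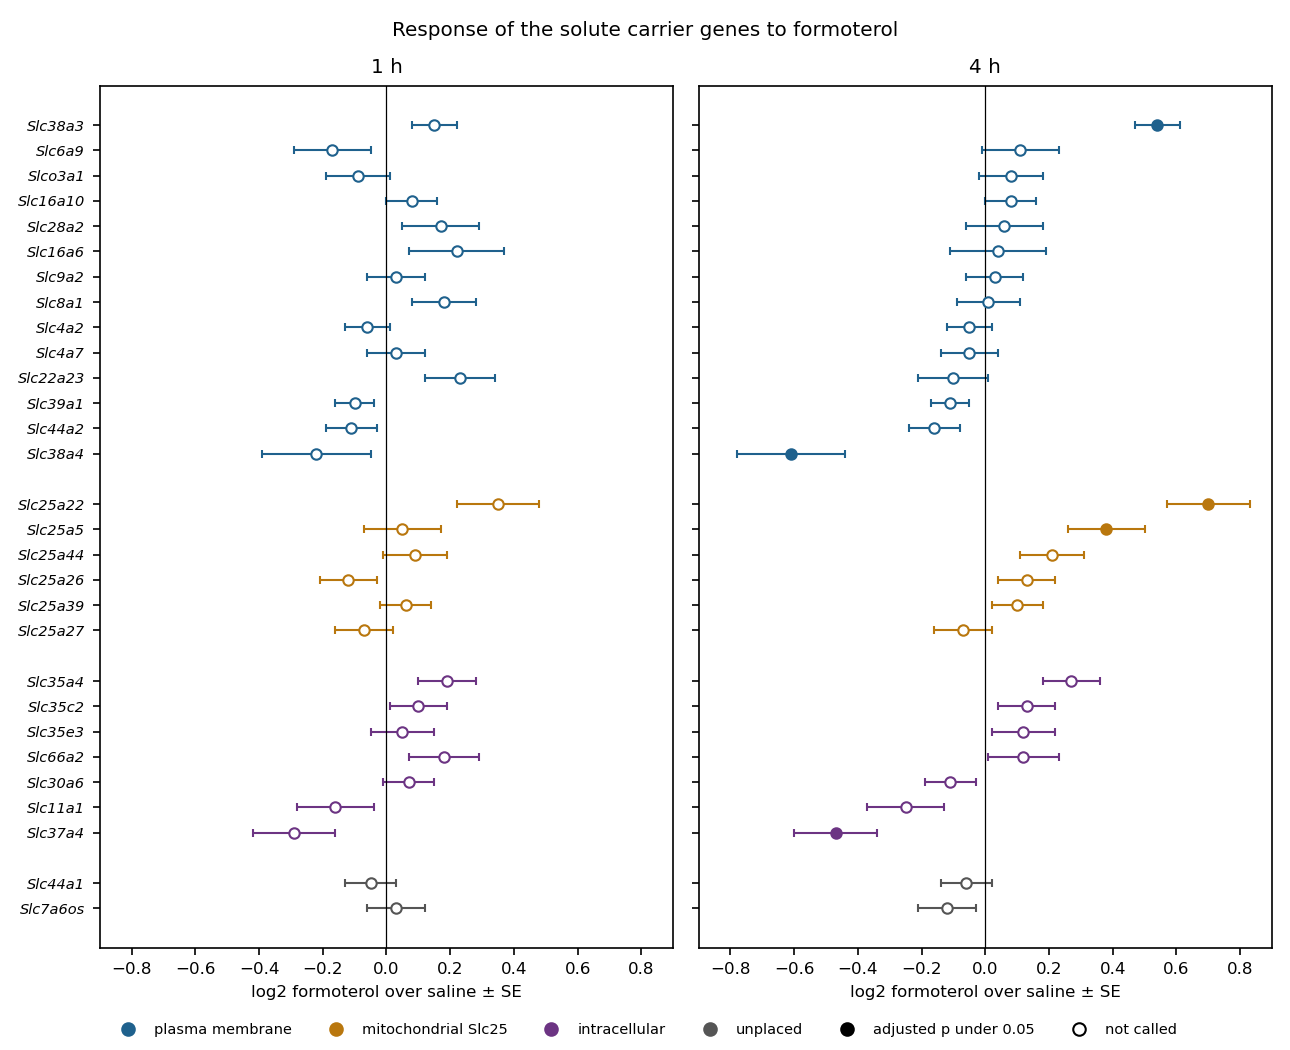
Log2 change with formoterol over saline (x axis, ± SE, n = 4 mice per group) for 29 of the 31 members (y axis), at 1 h on the left and 4 h on the right, ordered within class by the 4 h value. Filled points were called: none at 1 h and 5 at 4 h, of which 2 are Slc25 carriers.

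The plasma membrane class held the called carrier with the smallest adjusted p. Slc38a3 encodes SNAT3, a sodium-coupled transporter of glutamine and other neutral amino acids. At 4 h its level was 456, 446, 444 and 439 in formoterol mice, against 296, 297, 309 and 327 in saline mice. The groups lay well apart and the formoterol mice were close to each other (mean 446.3 ± 6.8 against 307.2 ± 14.4, SD, n = 4 each). The log2 change was 0.54 (SE 0.07, adjusted p = 4.81e-05, limma), or 1.45-fold, and it stayed called in all 31 alternatives. With normexp background correction it shrank to 0.15. Within slides it was 0.58 on slide 1, with 3 mice per group, and 0.43 between the 2 mice on slide 2.

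At 1 h Slc38a3 read 416, 439, 422 and 457 in formoterol mice, against 355, 356, 410 and 445 in saline mice. The groups overlapped, and the change was 0.15 (SE 0.07, adjusted p = 0.367). The response at 4 h minus that at 1 h, 0.39, was the only such difference called among members (adjusted p = 0.0484), where 3.52% of kept probes were called. This call sits at the threshold. It was lost without any 1 of formoterol 1 h replicates 1, 2 and 3, saline 1 h replicates 3 and 4, formoterol 4 h replicates 1 to 4 and saline 4 h replicates 1, 2 and 3, with 0.32 to 0.39 and adjusted p of 0.0728 to 0.102.

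The saline groups of the 2 times were compared as well. Slc38a3 was 0.34 lower on the log2 scale in saline mice at 4 h than in those at 1 h, and this missed the threshold (adjusted p = 0.0709). It was called without saline 1 h replicate 1 (-0.39, adjusted p = 0.0319) or saline 4 h replicate 4 (-0.38, adjusted p = 0.0415). With slide as a fixed block it was -0.23 (adjusted p = 0.999). On the only slide that held saline mice of both times, slide 2, the 4 h mouse read 327 and the 1 h mice 355 and 356. The formoterol means were 446.3 ± 6.8 at 4 h and 433.8 ± 18.6 at 1 h (SD, n = 4 each). No member was called between the saline groups (limma, 0 of 31, with 3 at an unadjusted p under 0.05 and 0 by the methods' t-test), where 0.145% of kept probes were. Of the 7596 kept probes, 1046 had an unadjusted p under 0.05 (limma) there.

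Slc38a4 encodes SNAT4, a second amino acid transporter of the same family, and it moved the other way. At 4 h it read 764, 598, 689 and 606 in formoterol mice, against 845, 1638, 949 and 791 in saline mice. The groups did not overlap, but saline 4 h replicate 2 stood far above the rest. The change was -0.61 (SE 0.17, adjusted p = 0.0175). Without that mouse it was -0.38 (adjusted p = 0.0254). The call was lost without formoterol 4 h replicate 2 (-0.56, adjusted p = 0.0558) or replicate 4 (-0.57, adjusted p = 0.055), and when each time was fitted alone (adjusted p = 0.0609). It was also lost with normexp (-0.60, adjusted p = 0.0582), on slide 1 alone (adjusted p = 0.0678) and without the 3 arrays of extreme median signal (-0.34, adjusted p = 0.153). Within slides the change was -0.69 on slide 1 and -0.38 between the 2 mice on slide 2. At 1 h Slc38a4 averaged 682.5 ± 87.8 in formoterol mice and 792.2 ± 58.6 in saline mice (SD, n = 4 each), a change of -0.22 (adjusted p = 0.631).

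**Figure D2:**
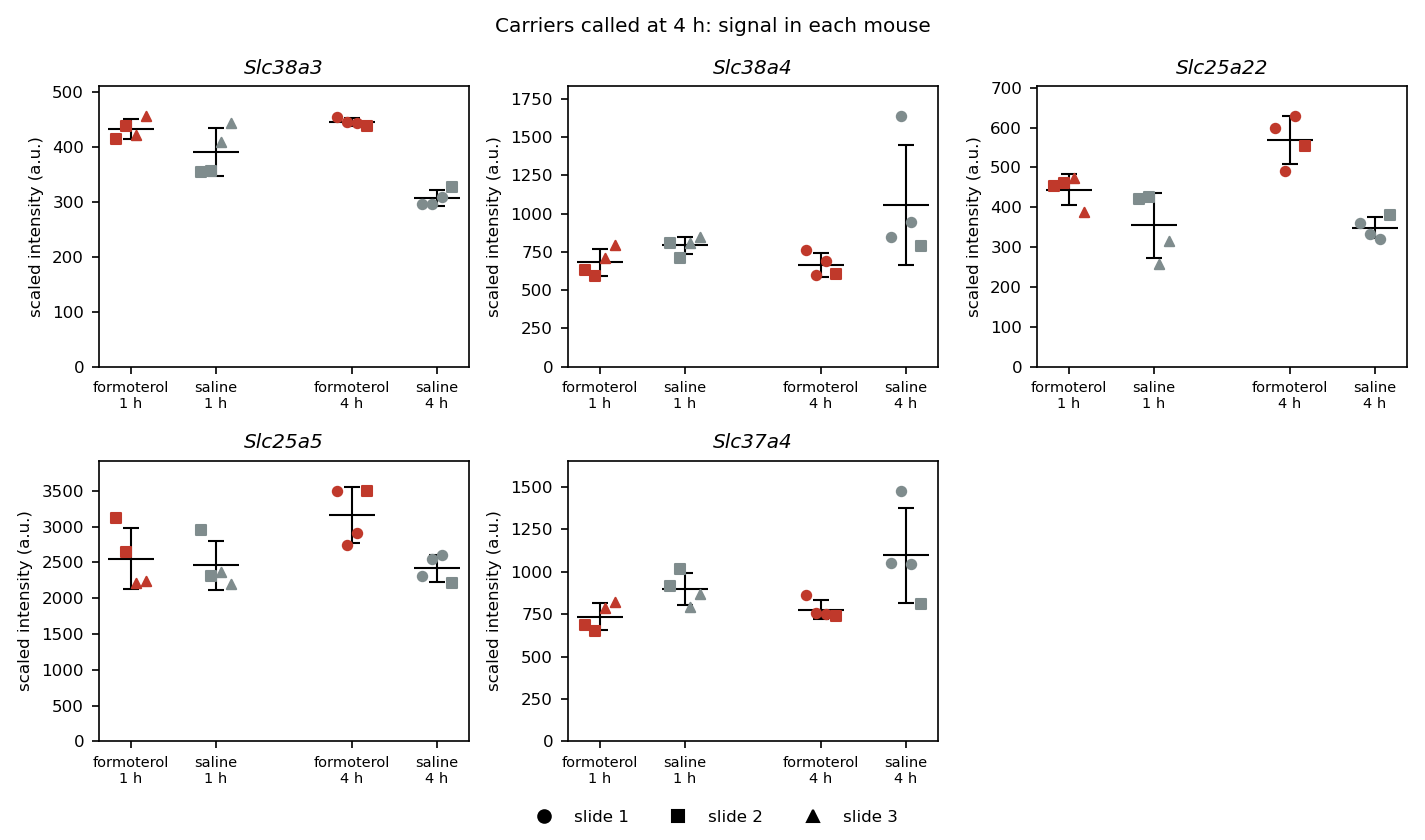
Scaled intensity (y axis, arbitrary units, from 0) of 5 members called at 4 h, in each mouse of the 4 groups (x axis), with the mean and SD in black and the slide given by the symbol. At 4 h the formoterol mice lie above all saline mice for Slc38a3, Slc25a22 and Slc25a5, and saline 4 h replicate 2 is the highest mouse for Slc38a4 and Slc37a4.

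The other brightest plasma membrane carriers were not called. Slc44a2, a choline transporter-like protein, averaged 2025.0 ± 153.4 in formoterol mice and 2265.1 ± 101.6 in saline mice at 4 h (SD, n = 4 each; log2 -0.16, adjusted p = 0.195). Slc39a1, the zinc importer ZIP1, read 1278, 1191, 1277 and 1215 in formoterol mice, against 1327, 1343, 1413 and 1285 in saline mice. All 4 formoterol mice were thus below the saline mice, by a log2 change of -0.11 (SE 0.06, adjusted p = 0.244). Slc22a23, an orphan member of the organic ion transporter family, and Slc16a10, the aromatic amino acid transporter TAT1, changed by -0.10 and 0.08 (adjusted p = 0.551 and 0.527). At 1 h the 4 had log2 changes of -0.11, -0.10, 0.23 and 0.08 in the same order, with adjusted p of 0.354 to 0.726.

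Among the remaining 9 plasma membrane carriers were the monocarboxylate transporter family member Slc16a6, the nucleoside transporter Slc28a2, the bicarbonate transporters Slc4a2 and Slc4a7, the glycine transporter Slc6a9, the sodium-calcium exchanger Slc8a1, the sodium-proton exchanger Slc9a2 and the organic anion transporter Slco3a1. At 4 h the log2 changes of the 9 ran between -0.05 and 0.11, and none was called. This range and the class medians include the fitted values of members that a whole group did not detect. Slc4a7 was detected on no array of the formoterol 4 h group and Slc6a9 on none of the formoterol 1 h group, so only a bound exists there, and no fold is given since the saline mean did not exceed the lowest detected signals.

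Slco3a1 was measured by a second, dimmer probe, and its probes disagreed at 4 h. The brighter one read 434, 470, 404 and 427 in formoterol mice, against 447, 507, 345 and 358 in saline mice. These overlapped, with a log2 change of 0.08 (SE 0.10, adjusted p = 0.620). The dimmer one read 382, 416, 409 and 406 in formoterol mice, against 302, 268, 298 and 368 in saline mice. These did not overlap, and its log2 change of 0.39 (SE 0.10) was called (adjusted p = 0.00865). Saline 4 h replicate 2 was the highest mouse of its group with the brighter probe and the lowest with the dimmer one. With the probe of largest change per gene, 7 members in place of 6 would be called at 4 h.

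**Figure D3:**
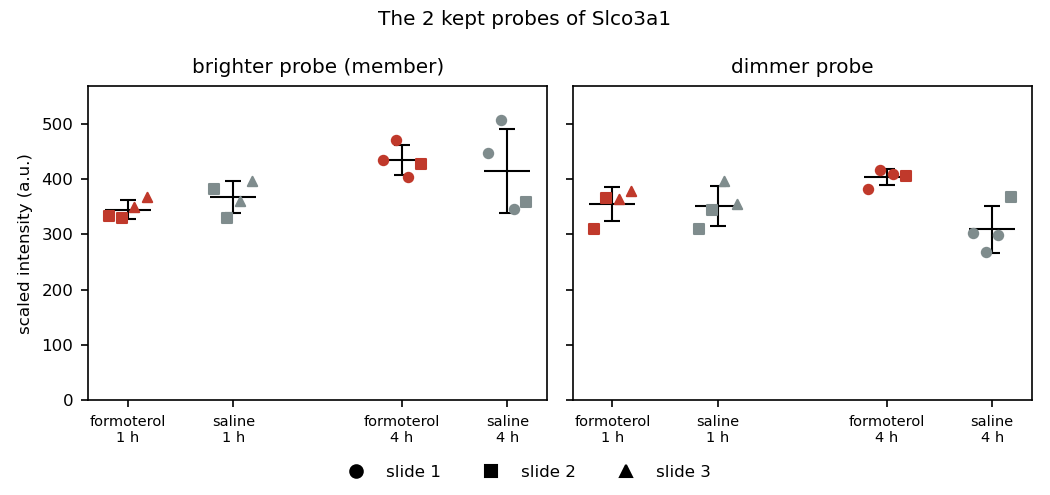
Scaled intensity (y axis, arbitrary units, from 0) of both kept Slco3a1 probes in each mouse of the 4 groups (x axis), with the mean and SD in black. At 4 h the formoterol and saline mice overlap with the brighter probe and do not with the dimmer one.

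Of the 7 mitochondrial Slc25 carriers, 3 rose at 4 h and none fell, against 1 higher and 1 lower of the 15 plasma membrane carriers, where 8.81% of all kept probes were higher and 7.07% lower. The count of 3 for Slc25 became 1, Slc25a22, without formoterol 4 h replicate 1, formoterol 4 h replicate 4 or saline 4 h replicate 1. In the same order, 14.9%, 11.6% and 11.9% of all kept probes were called in these fits, against 15.9% in the main fit. Slc25a22 encodes a mitochondrial glutamate carrier. At 4 h it read 600, 491, 629 and 553 in formoterol mice, against 360, 333, 321 and 380 in saline mice. Every formoterol mouse was above every saline mouse. The log2 change was 0.70 (SE 0.13, adjusted p = 0.00102), or 1.63-fold, with 0.76 on slide 1 and 0.54 between the 2 mice on slide 2. It stayed called in all 31 alternatives, at 0.26 with normexp and 0.77 at most.

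At 1 h Slc25a22 read 454, 462, 473 and 388 in formoterol mice, against 421, 425, 258 and 315 in saline mice, where 258 is the floor. The groups overlapped, with a log2 change of 0.35 (SE 0.13, adjusted p = 0.212). This was 0.12 on slide 2 and 0.59 on slide 3, each with 2 mice per group. The difference between the responses at 4 h and 1 h, 0.35, was not called (adjusted p = 0.457).

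Slc25a5 encodes ANT2, an exchanger of ADP and ATP. At 4 h it read 3499, 2744, 2909 and 3499 in formoterol mice, against 2305, 2548, 2600 and 2207 in saline mice. The groups did not overlap, and the log2 change was 0.38 (SE 0.12, adjusted p = 0.0335). It was 0.29 on slide 1 and 0.66 between the 2 mice on slide 2. The call was lost without formoterol 4 h replicate 1 (0.33, adjusted p = 0.0899) or replicate 4 (0.33, adjusted p = 0.108), and without saline 4 h replicate 1 (0.36, adjusted p = 0.0831) or replicate 4 (0.34, adjusted p = 0.0614). It was also lost on slide 1 alone (adjusted p = 0.12). At 1 h the change was 0.05 (adjusted p = 0.915). Probe sequences were not used, so a match to related ADP/ATP carriers was not checked.

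The remaining 4 Slc25 carriers were not called at 4 h. Slc25a39, which imports glutathione, averaged 1880.2 ± 120.5 in formoterol mice and 1757.0 ± 224.9 in saline mice (log2 0.10, adjusted p = 0.420). Slc25a26, the carrier of S-adenosylmethionine, averaged 663.8 ± 47.8 in formoterol mice and 606.4 ± 54.6 in saline mice (SD, n = 4 each; log2 0.13, adjusted p = 0.317). Slc25a44, a carrier of branched-chain amino acids, had a log2 value of 0.21 (adjusted p = 0.162). The uncoupling protein homologue Slc25a27 was detected on no array of the formoterol 4 h group, so only a bound exists there. Its groups overlapped (adjusted p = 0.616), and no direction is read from it, though its fitted value enters the class counts and medians below.

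Seen as a class, the 4 h change was above 0 in 6 of the 7 Slc25 carriers, with a median of 0.21 on the log2 scale. In the plasma membrane class it was above 0 in 8 of 15, with a median of 0.01, and in the intracellular class in 4 of 7, with a median of 0.12. Over all kept probes 54% were above 0 and the median was 0.02. The Slc25 median stayed between 0.15 and 0.25 over the alternatives, and that of the plasma membrane carriers between -0.06 and 0.05. For the response at 4 h minus that at 1 h, the medians were 0.25 for Slc25, with no member called, and -0.05 for the plasma membrane class. The difference between the classes is a description and was not tested.

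The same values were also summarized mouse by mouse. The summary was the median over a class of each gene's log2 value less that gene's mean over the 16 mice. For Slc25 at 4 h it was 0.17, 0.07, 0.15 and 0.14 in formoterol mice, against -0.18, -0.17, -0.01 and -0.13 in saline mice. Formoterol mice were thus above and saline mice below the gene means. At 1 h it was -0.01 to 0.05 in formoterol mice and -0.03 to 0.09 in saline mice. For the plasma membrane class at 4 h it was -0.04 to 0.01 in formoterol mice and 0.00 to 0.07 in saline mice. In the intracellular class at 4 h the mice overlapped, at -0.14 to 0.00 with formoterol and -0.12 to -0.01 with saline.

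**Figure D4:**
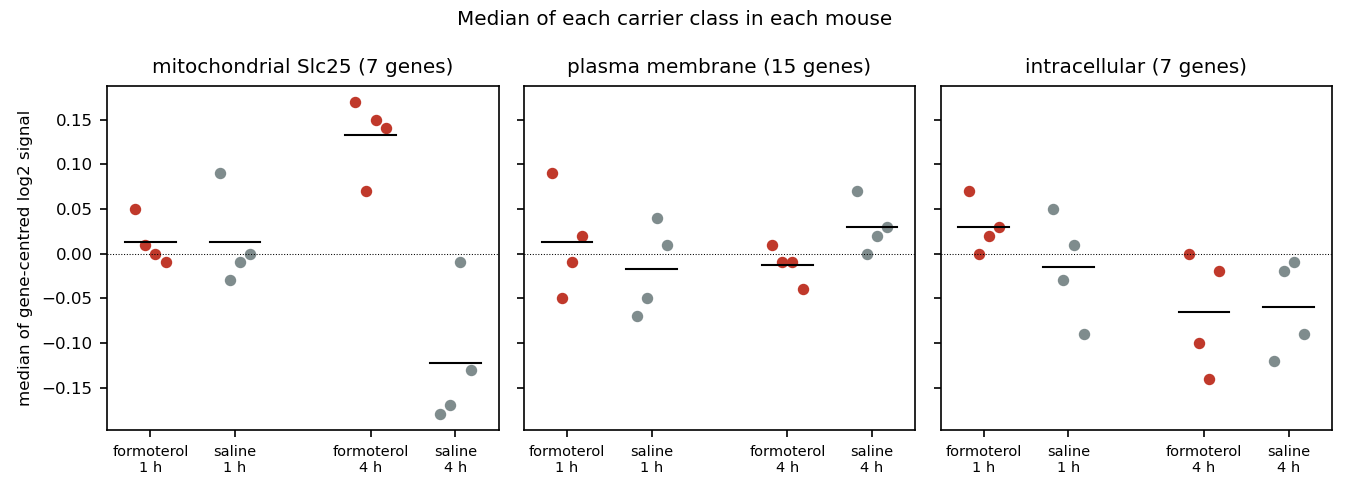
Median over each class of the gene-centred log2 signal (y axis) in each mouse of the 4 groups (x axis), with lines at group means, for 7 Slc25, 15 plasma membrane and 7 intracellular carriers. For Slc25 at 4 h the formoterol mice lie at 0.07 to 0.17 and the saline mice at -0.18 to -0.01.

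Among the intracellular carriers 1 of 7 was called at 4 h (14.3%), near the 15.9% of all kept probes. Slc37a4 moves glucose 6-phosphate into the endoplasmic reticulum. It read 861, 755, 753 and 738 in formoterol mice, against 1050, 1477, 1048 and 808 in saline mice. The groups overlapped through saline 4 h replicate 4 and formoterol 4 h replicate 1. The log2 change was -0.47 (SE 0.13, adjusted p = 0.0242), with -0.58 on slide 1 and -0.13 between the 2 mice on slide 2. The call was lost without formoterol 4 h replicates 2 (-0.45, adjusted p = 0.0606), 3 (-0.45, adjusted p = 0.06) or 4 (-0.44, adjusted p = 0.067), or saline 4 h replicate 2 (-0.31, adjusted p = 0.076). It was also lost when each time was fitted alone (adjusted p = 0.0629) and without the 3 arrays of extreme median signal (-0.27, adjusted p = 0.300). At 1 h it was -0.29 (adjusted p = 0.354), with -0.53 on slide 2 and -0.04 on slide 3.

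Slc35a4, a Golgi protein of the nucleotide sugar transporter family, lay just outside the threshold at 4 h. It read 1196, 852, 1036 and 1116 in formoterol mice, against 860, 815, 932 and 854 in saline mice, and the groups overlapped through formoterol 4 h replicate 2. The log2 change was 0.27 (SE 0.09, adjusted p = 0.0501). It was called in 10 of 31 alternatives. These included slide as a fixed block (0.27, adjusted p = 0.0497) or a random block (0.27, adjusted p = 0.0443), and the fits without formoterol 4 h replicate 2 (0.37, adjusted p = 0.00469) or saline 4 h replicate 3 (0.31, adjusted p = 0.0449). The others named by brightness were Slc66a2, a protein of the PQ-loop family (log2 0.12, adjusted p = 0.492), Slc11a1, the metal transporter of macrophage phagosomes (log2 -0.25, adjusted p = 0.178), and the Golgi zinc transporter Slc30a6 (log2 -0.11, adjusted p = 0.336). Slc11a1 (-0.36, adjusted p = 0.0296) and the mitochondrial Slc25a44 (0.31, adjusted p = 0.0226) were called when saline 4 h replicate 4 was left out. The members Slc35c2 and Slc35e3 changed by 0.13 and 0.12. Of the members in no class, Slc44a1 changed by -0.06 and Slc7a6os by -0.12, and neither was called.

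The summed markers of fibroblasts and of red blood cells differed between formoterol and saline mice at 4 h, and those of macrophages overlapped. The summed level of the 4 measured fibroblast genes of 7 listed was 17049 to 19266 in formoterol mice at 4 h, against 21539 to 31779 in saline mice, and the highest mouse was saline 4 h replicate 2, as for Slc38a4 and Slc37a4. Saline 4 h replicate 2 was the highest mouse of its group in 27.8% of all kept probes and the lowest in 43.8%. Of the fibroblast genes, Col1a1, Col1a2 and Col3a1 fell at 4 h and Dcn did not pass the test. At 1 h their sum was 14192 to 18200 in formoterol mice and 20601 to 25212 in saline mice. The summed level of the 2 measured red blood cell genes of 6 listed was 24622 to 42282 in formoterol mice at 4 h and 5878 to 19622 in saline mice, again without overlap. Of these, Hba-a1 rose (adjusted p = 6.47e-04) and Hbb-b1 did not pass the test (adjusted p = 0.0573). At 1 h their sum was 22189 to 39916 in formoterol mice and 13920 to 38311 in saline mice, and the 3 lowest of the 16 mice were saline mice at 4 h. The 2 measured macrophage genes summed to 722 to 884 in formoterol mice and 744 to 960 in saline mice at 4 h. The part of these cell types in the carrier results was not tested.

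Of 42 other genes of membrane transport in a list drawn up beside the members, 8 were measured. None was called at 1 h, where 2.78% of all kept probes were, and at 4 h 1 was higher and 2 were lower, where 8.81% and 7.07% of all kept probes were. With so few genes these counts say nothing particular to the list. Tbc1d1, which controls the movement of glucose transporters to the surface, rose by 0.60 (SE 0.10, adjusted p = 4.63e-04). Atp1b4, a sodium pump β-subunit relative, fell by 0.89 (SE 0.15, adjusted p = 3.04e-04), and Aqp4, the water channel of fast fibres, fell by 0.59 (SE 0.14, adjusted p = 0.00719). The mitochondrial members of that list, Mpc2, Vdac1, Vdac3 and Mtch2, were not called (log2 -0.34 to 0.29).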

How the data were processed

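The deposited intensity of a probe is the mean over its beads, exported by the authors from BeadStudio 1.5.1.3 and not normalized. A detection score between 0 and 1 was deposited beside it. The authors also deposited a ratio, the intensity over its array median (GeneSpring GX per the methods), which differed from the ratio computed again here by a relative 0.0016 at most.

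Arrays were brought to the same median, 1215 values were raised to the floor (percentile 1), and log2 was taken. Group means were fitted over the 16 arrays with limma 3.58.1 in R 4.3.3 (12 residual and 5.97 prior degrees of freedom). Tables were handled in Python 3.11.15 with pandas 2.3.3. The arrays lay on 3 slides, each with mice of both treatments, and the number of arrays limits the precision. Slide 1 held only 4 h mice and slide 3 only 1 h mice, and the times also differ in time of day. Only slide 2 held both times, so comparisons between 4 h and 1 h can be told apart from slide only in part. They cannot be told apart from time of day. With 4 against 4 mice an exact test of 1 gene cannot go below 0.029. The fit was tested on simulated data.

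The members and lists were chosen with earlier results of these data known. Named with values were members called in any comparison, the 5 brightest of each main class, and second probes of these; the others named, among them Slc6a9, Slc4a7, Slc16a6, Slc9a2, Slc25a44 and Slc25a27, were chosen after their values were seen. Some genes that the counts and medians include are not reported here by themselves. The listed fast and slow muscle, fibroblast, red blood cell, endothelial, macrophage, Schwann cell, adipocyte and smooth muscle markers had 2, 1, 4, 2, 3, 2, 1, 1 and 1 measured genes. Endothelial Eng rose and Emcn fell at 4 h. Measured genes of the slow muscle, macrophage, Schwann cell, adipocyte and smooth muscle lists were not called.

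Alternatives were quantile normalization, normexp with quantile normalization, the deposited ratio, no filter, a laxer filter (score of 0.99 in all 4 mice of a group), an offset of 50, the methods' t-test, each time alone, slide as a block or alone, the replicate number as a block, eBayes with trend and robust, the probe of largest change, an adjusted p under 0.01 and each array left out. Added after seeing the data were a fit without the 3 arrays whose median signal was extreme and 1 with signal over background as a covariate.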

Additional observations from a re-analysis of the deposited data

Results flagged for a closer look

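In 6 of the 124 sets of 4 mice examined (31 members in 4 groups), 1 mouse lay apart from the other 3 by more than Dixon's critical share of the range for 4 values, which chance alone gives in about 1 set in 20. Slc16a10 read 575 in saline 4 h replicate 4, against 459 to 469 in the others (gap of 0.9 of the range). Slc22a23 was lowest in the same mouse, at 585 against 654 to 664 (0.875). Slc44a2 read 2417 in saline 4 h replicate 2, against 2209 to 2218 (0.956). In formoterol 4 h replicate 1, Slc16a6 read 630 with 457 the next (0.861), and Slc37a4 read 861 with 755 the next (0.857). Slc9a2 was lowest in formoterol 1 h replicate 1, at 462 against 474 in the other 3 (0.94), a gap of few units. Formoterol 4 h replicate 1 was the highest mouse of its group in 16 of 31 members (51.6%), against 23.6% of all kept probes. The response of Slc38a3 differed between 4 h and 1 h by 0.39 on the log2 scale (limma, adjusted p = 0.0484), with all 4 formoterol mice above all 4 saline mice at 4 h.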

How the results depend on the processing

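The count of 0 members called at 1 h held in 33 of 34 alternatives. On slide 2 alone it was 3 (Slc22a23 0.47, Slc8a1 0.46 and Slc37a4 -0.53, with 2 mice per group). There 8.33% of all kept probes were called, and the plasma membrane median was 0.09. The 6 calls at 4 h became 2 without a filter on dim probes and by the methods' t-test. An adjusted p under 0.01 gave 2 as well, and these were Slc38a3 and Slc25a22 each time. Slide 1 alone gave 3, where 11.5% of all kept probes were called. Leaving out single arrays gave 2 to 7, and the 2 came without formoterol 4 h replicate 4, with Slc38a3 and Slc25a22 called. The share of all kept probes called was then 11.6% to 23.4%, and 11.6% without that replicate. The count over all kept probes was 501 of 46120 without the filter and 393 by the t-test, against 1206. The call of Slc38a3 for the response at 4 h minus that at 1 h gave 0 with quantile normalization, normexp, the deposited ratio, no filter, the 0.99 score filter, the offset, an adjusted p under 0.01 and without the 3 arrays of extreme median signal, and 0 to 1 with single arrays left out. Between the saline groups the count was 0 to 1 with single arrays left out. The plasma membrane median at 4 h was -0.05 with quantile normalization, -0.06 without the 3 arrays, -0.04 with signal over background as a covariate and -0.03 to 0.05 with single arrays left out. The Slc25 median at 1 h was 0.00 to 0.07 with single arrays left out. The deviations of formoterol and saline mice with the same replicate number and time correlated at -0.249 to 0.298. These mice also shared a slide, and the correlations are few, so they cannot show whether the numbers pair the mice. With slide as a fixed or random block 7 were called at 4 h, Slc35a4 joining the 6, where 19.7% and 17.7% of all kept probes were called. With the replicate block 7 members were called at 4 h, Slc35a4 joining the 6, where 16.8% of all kept probes were called. For the difference between times 1 member was called with this block, where 3.67% of all kept probes were. Between the saline groups 1 member was called with it (Slc38a3, limma, adjusted p = 0.0483). No value of a named call changed sign. The causes of these changes were not tested. With normexp the 4 h changes of Slc38a3 and Slc25a22 were 0.15 and 0.26.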
